A study of Pyrus communis with 12 samples.

Results

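The transcripts of 3 genes of low-oxygen metabolism were followed in pear skins, namely PCP045155, which carries a phosphofructokinase domain, PCP025189, which carries a pyruvate decarboxylase domain, and PCP032922, which carries the domain named hypoxia induced protein. They are 3 of the 42760 genes in the deposited table, and they were selected on their FPKM, for being higher in the skin of the red sport ‘RCF’ than in that of ‘CF’ at both stages. Differences between the cultivars are therefore given for these 3 genes as a description, without a test, while changes between the stages were tested. The question was how their transcripts were spread over the libraries, and whether other genes with the same domains, or other genes of low-oxygen metabolism, differed in the same way.

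Plants short of oxygen draw their energy from glycolysis, and pyruvate is then turned into ethanol so that glycolysis can go on. Phosphofructokinase catalyses the committed step of glycolysis, and pyruvate decarboxylase turns pyruvate into acetaldehyde, the first step of ethanol fermentation. Proteins with the hypoxia induced domain are small membrane proteins, named after mammalian relatives of mitochondria that are made at low oxygen. All these enzymes also work in tissues with ample oxygen, and a transcript level is not a rate of fermentation.

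The skins came from young fruits of the pear ‘Clapp Favorite’ (‘CF’) and of its red sport, ‘Red Clapp Favorite’ (‘RCF’), a bud mutant of the same cultivar, both grafted onto Pyrus betulaefolia and left untreated. ‘CF1’ and ‘RCF1’ stand for the skins taken 2 days after full bloom (DAFB), ‘CF2’ and ‘RCF2’ for those of 5 DAFB, with 3 biological replicates in each group and 12 libraries in all. Each replicate was a pool of fruits, so that a value is an average over many fruits, and the sport is a single mutant line. Levels are in FPKM, fragment numbers scaled by the length of the gene and by the size of the library, so that genes of different length can be compared. Differences are given on the log2(FPKM + 1) scale as limma estimated them, with the standard error (SE). The 25707 genes that reached 1 FPKM in 3 or more libraries were tested, and DEGs were those with an unadjusted P under 0.05 and a log2 difference of 1 or more in either direction. All 3 genes passed this filter, PCP032922 through its ‘RCF’ libraries.

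One library stood apart. The replicates of a group had a Pearson r of 0.964 to 0.991 over the tested genes, except that ‘CF1’ replicate 3 had an r of 0.911 and 0.844 with the other replicates of ‘CF1’. Cultivar differences at 2 DAFB and stage changes of ‘CF’ rest on this library, and the value without it is given beside the main ones. Shares over all tested genes are given with all libraries alone, so counts of calls without this library have no share beside them. Over all tested genes the cultivars differed by a median of 0.12 on the log2 scale at 2 DAFB and −0.01 at 5 DAFB, and the stages by 0.02 within ‘RCF’ and 0.16 within ‘CF’. Of families used as cell markers, the chlorophyll a/b binding proteins of photosynthetic cells (44 of 54 genes tested, 7 at 0 in all libraries) differed between the cultivars. Their summed FPKM was 3831 to 4829 in ‘CF1’ against 2755 to 3472 in ‘RCF1’, and 4927 to 5450 in ‘CF2’ against 3496 to 3991 in ‘RCF2’, lower in ‘RCF’ at both stages, without overlap. At 5 DAFB the cuticle and epidermis families (48 of 100 genes tested, 13 at 0 in all libraries) were also lower in ‘RCF’, at 12497 to 13734 in ‘CF2’ against 10071 to 12474 in ‘RCF2’. The families of lignified and vascular cells (33 of 88 genes tested, 17 at 0 in all libraries) were higher, at 458 to 547 against 575 to 697, and at 2 DAFB both of these sums overlapped between the cultivars. The families of pollen and floral remains (28 of 87 genes tested, 29 at 0 in all libraries) overlapped at both stages, at 3013 to 3381 against 2999 to 3585 and 3571 to 3642 against 3359 to 3573. The part of these shifts in the differences below was not tested. In a bulk sample, fewer cells of a type and less RNA per cell cannot be told apart.

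PCP045155, the phosphofructokinase, was the most abundant of the 3 genes by mean FPKM in ‘CF1’, ‘RCF1’ and ‘RCF2’, and PCP025189 was in ‘CF2’. PCP045155 lies on scaffold02990, from 6332 to 9617 on the plus strand. Its FPKM was 40.2, 52.4 and 51.8 in the ‘CF1’ libraries and 139, 164 and 152 in the ‘RCF1’ libraries. At 5 DAFB it was 18.4, 18.7 and 23.1 in ‘CF2’ and 89.5, 94.4 and 73.9 in ‘RCF2’. No group overlapped another: ‘RCF1’ was highest, then ‘RCF2’, then ‘CF1’, and ‘CF2’ was lowest, so that the older ‘RCF’ skins still lay above the younger ‘CF’ skins. The means of ‘CF1’ and ‘RCF1’ were 48.1 ± 6.86 and 152 ± 12.8, and those of ‘CF2’ and ‘RCF2’ were 20.1 ± 2.63 and 85.9 ± 10.7 (SD, n = 3 each). ‘RCF’ held 3.15 times the mean FPKM of ‘CF’ at 2 DAFB and 4.28 times at 5 DAFB, log2 differences of 1.64 (SE 0.15, and 1.70 without ‘CF1’ replicate 3) and 2.04 (SE 0.12). By mean FPKM the gene ranked 2588 of 42760 genes in ‘CF1’ and 627 in ‘RCF1’, 6042 in ‘CF2’ and 1173 in ‘RCF2’.

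PCP025189, the pyruvate decarboxylase, followed the same order of groups with less separation. It lies on scaffold01396, from 84736 to 88194 on the plus strand. Its FPKM was 39.2, 35.8 and 57.7 in ‘CF1’, 105, 135 and 122 in ‘RCF1’, 27.1, 27.6 and 22.1 in ‘CF2’, and 60.7, 50.9 and 49.2 in ‘RCF2’. The cultivars did not overlap at either stage, whereas ‘RCF2’ and ‘CF1’ did, through the high value of ‘CF1’ replicate 3, the library that stood apart. The means were 44.2 ± 11.8, 121 ± 14.7, 25.6 ± 3.04 and 53.6 ± 6.23 FPKM in the same order (SD, n = 3 each). The log2 difference was 1.45 (SE 0.21) at 2 DAFB, and 1.66 without ‘CF1’ replicate 3. At 5 DAFB it was 1.04 (SE 0.11), just inside the limit of 1, and it fell to 0.94 without ‘CF2’ replicate 3 and to 0.95 without ‘RCF2’ replicate 1.

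PCP032922, the hypoxia induced protein, was listed at or near 0 in ‘CF’ and above 1 FPKM in every ‘RCF’ library. It lies on scaffold01404, from 64100 to 64824 on the plus strand. In ‘CF1’ it was listed at 0, 0 and 0.152 FPKM, and in ‘CF2’ at 0 in all 3 libraries. In ‘RCF1’ it stood at 9.18, 14.2 and 6.55 FPKM, and in ‘RCF2’ at 3.45, 1.90 and 3.45. Each ‘RCF’ library lay above every ‘CF’ library, and each ‘RCF1’ library above every ‘RCF2’ library. The means were 9.99 ± 3.90 FPKM in ‘RCF1’ and 2.94 ± 0.893 in ‘RCF2’ (SD, n = 3 each). No fold is given against libraries listed at 0: the log2 differences of 3.33 (SE 0.27, and 3.40 without ‘CF1’ replicate 3) and 1.95 (SE 0.17) depend on the 1 added to each FPKM, and became 6.14 and 4.87 when 0.1 was added. Of all 42760 genes, 2 were under 0.2 FPKM in all 6 ‘CF’ libraries and at least 1 in all 6 ‘RCF’ libraries, namely PCP032922 and PCP008283, a gene with a Myb DNA-binding domain, and 0 genes had the opposite pattern. The limit of 0.2 lies just above the highest ‘CF’ values of the 2 genes, 0.152 and 0.197. PCP032922 was itself chosen for its cultivar difference, so the count is a description that depends on these limits.

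**Figure D1:**
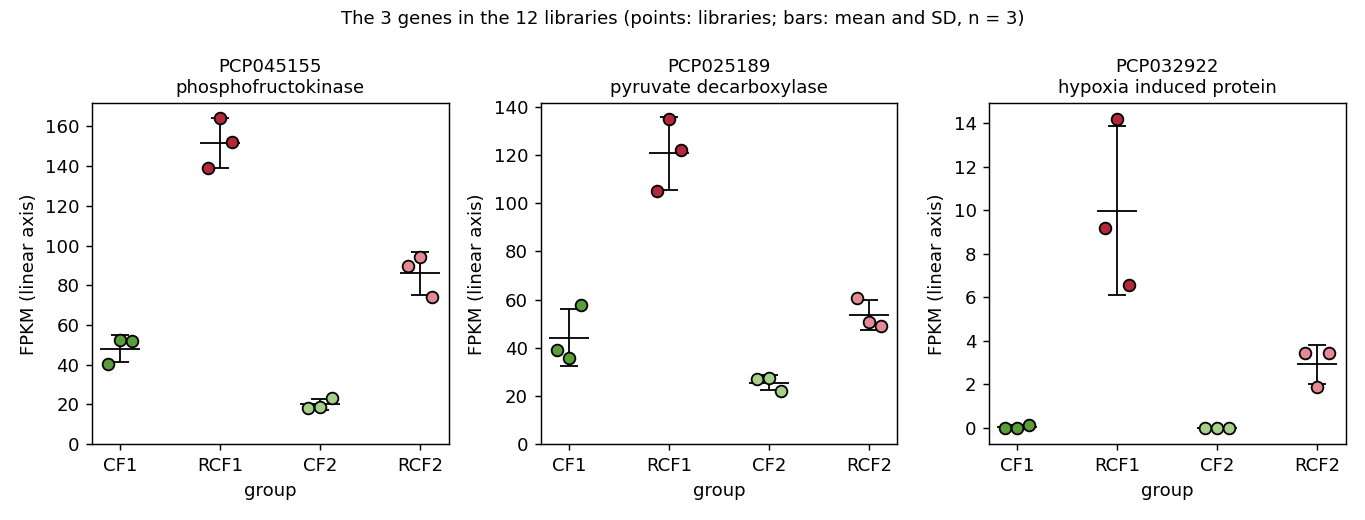
FPKM (linear axes) of PCP045155, PCP025189 and PCP032922 in each library of ‘CF1’, ‘RCF1’, ‘CF2’ and ‘RCF2’. Points are libraries, long bars the group means and whiskers the SD (n = 3). ‘RCF’ lay above ‘CF’ at both stages, and PCP032922 was at 0 in 5 of the 6 ‘CF’ libraries.

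The choice of the genes used both comparisons of the cultivars, so their calls there carry no information of their own. All 3 met the DEG thresholds at 2 DAFB, where 2.89% of the tested genes did, and at 5 DAFB, where 1.26% did. Higher calls at both stages were made for 33 tested genes (0.128%), these 3 included, and 3.70% of the tested genes had ‘RCF’ libraries above all ‘CF’ libraries at both stages.

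From 2 to 5 DAFB all 3 transcripts fell in ‘RCF’ or lay lower without reaching the fold limit. In ‘RCF2’ vs. ‘RCF1’, where 10.3% of the tested genes were called and 6.71% were called lower, PCP025189 fell by 1.15 on the log2 scale (SE 0.11, limma adjusted P = 0.000175) and PCP032922 by 1.45 (SE 0.27, adjusted P = 0.00347). PCP045155 changed by −0.82 (SE 0.11, adjusted P = 0.000701), past the P threshold but short of the fold limit. The mean FPKM in ‘RCF2’ was 56.7% of that in ‘RCF1’ for PCP045155 and 44.4% for PCP025189.

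In ‘CF’, PCP045155 was the one of the 3 to be called. In ‘CF2’ vs. ‘CF1’, where 17.1% of the tested genes were called and 9.91% were called lower, PCP045155 fell by 1.22 (SE 0.16, limma adjusted P = 0.0106), and its change was −1.16 without ‘CF1’ replicate 3 and −0.96 with array weights, short of the limit. PCP025189 changed by −0.74 (SE 0.21, adjusted P = 0.0514), and by −0.54 without ‘CF1’ replicate 3. PCP032922 was at or near 0 throughout ‘CF’ and had passed the filter through its ‘RCF’ libraries. Its change of −0.07 (SE 0.12) was fixed by values at the floor and tells nothing of a stage change in ‘CF’. The stage comparisons share their libraries with the comparisons of the cultivars, and whether the 3 genes changed differently in the 2 cultivars was not tested because the choice of the genes used that contrast.

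The phosphofructokinase domain was given for 12 other genes, of which 11 were tested. At 2 DAFB 1 of them was called higher in ‘RCF’ (1.02% of all tested genes were). At 5 DAFB 0 were called (1.26% of all tested genes were), and the median log2 differences were 0.17 and 0.03. With limma and an unadjusted P under 0.05, fold aside, 2 of the 11 passed in each of these comparisons. For the cultivar and stage comparisons, no share of all tested genes is given for that P threshold alone. Such counts, here and below, therefore cannot be set against the shares of calls, which also need the fold limit. The called gene was PCP003458, at 8.29, 12.1 and 5.32 FPKM in ‘CF1’ and 23.1, 24.7 and 22.0 in ‘RCF1’, groups that did not overlap. Its log2 difference was 1.41 at 2 DAFB (limma adjusted P = 0.159, 0.000175 to 0.619 over the alternatives, and a difference of 1.14 without ‘CF1’ replicate 3) and 0.47 at 5 DAFB (adjusted P = 0.0137, below the fold limit). The 3 most abundant others, PCP015454, PCP012850 and PCP009541, differed by 0.35, 0.44 and 0.16 at 2 DAFB and by 0.11, 0.37 and 0.05 at 5 DAFB, and 0 of them were called.

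PCP045155 thus made up a different share of the phosphofructokinase transcripts in the 2 cultivars. Summed over the 13 genes with the domain, FPKM was 238 ± 15.4 in ‘CF1’ against 365 ± 13.4 in ‘RCF1’, and 233 ± 17.8 in ‘CF2’ against 322 ± 22.4 in ‘RCF2’ (SD, n = 3 each). PCP045155 held 20.2% of that sum in ‘CF1’ and 41.4% in ‘RCF1’, 8.69% in ‘CF2’ and 26.6% in ‘RCF2’. Without it, the sums were 181 to 200.1 in ‘CF1’ against 212 to 216 in ‘RCF1’, and 200.3 to 234 in ‘CF2’ against 225 to 249.7 in ‘RCF2’, so that the cultivars still did not overlap at 2 DAFB and did at 5 DAFB. A further 7 genes with the related names phosphofructokinase domain or pyrophosphate-dependent phosphofructokinase, alpha subunit, looked at after the names had been seen, gave 0 calls in the 4 comparisons with limma, and 2, 0, 5 and 6 of them had an unadjusted P under 0.05. Of all tested genes, 2.89%, 1.26%, 10.3% and 17.1% were called there, and a 0 among so few genes lies near these shares.

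Among the other phosphofructokinases, PCP005573 had the steepest decline with age. It stood at 15.4, 6.43 and 32.4 FPKM in ‘CF1’, 7.70, 5.49 and 7.98 in ‘RCF1’, 1.01, 1.54 and 2.21 in ‘CF2’ and 1.18, 2.19 and 1.26 in ‘RCF2’. It fell by 1.67 in ‘RCF’ (limma adjusted P = 0.000289) and by 2.65 in ‘CF’ (adjusted P = 0.0247, and by 2.12 without ‘CF1’ replicate 3), while the cultivars overlapped at both stages.

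Pyruvate decarboxylase was a different case, since at 2 DAFB all the other tested genes of the family were called higher in ‘RCF’ too. The domain was given for 7 other genes: PCP005597 and PCP038958 were at 0 in all libraries, PCP039365 and PCP015566 stayed under 1 FPKM, and PCP002576, PCP005592 and PCP034494 were tested. None of their 3 calls at 2 DAFB held after adjustment (0.0233% of all tested genes did, 6 genes). At 5 DAFB 0 were called with limma (1.26% of all tested genes were). An unadjusted P under 0.05 was reached by 2 of the 3, a count without a share of all tested genes beside it.

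PCP002576 was the dominant pyruvate decarboxylase transcript. Its FPKM was 111, 179 and 33.0 in ‘CF1’, 371, 456 and 415 in ‘RCF1’, 228, 248 and 211 in ‘CF2’, and 277, 288 and 287 in ‘RCF2’. ‘RCF’ exceeded ‘CF’ in every library at both stages, by a factor of 3.84 in the means at 2 DAFB and 1.24 at 5 DAFB, and it ranked 102 of all genes in ‘RCF1’. The log2 differences were 2.23 (SE 0.60, limma adjusted P = 0.245, range over the alternatives 0.000307 to 0.619) and 0.31 (SE 0.08, adjusted P = 0.0512). Without ‘CF1’ replicate 3, in which the gene stood lowest, the first was 1.54 (adjusted P = 0.0584).

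PCP005592 stood at 7.11, 14.9 and 3.03 FPKM in ‘CF1’ and at 44.5, 53.7 and 44.4 in ‘RCF1’, then at 11.0, 14.7 and 10.4 in ‘CF2’ and 21.8, 19.7 and 20.8 in ‘RCF2’. The cultivars did not overlap at either stage, with log2 differences of 2.59 (limma adjusted P = 0.159, and 2.09 without ‘CF1’ replicate 3) and 0.75 (adjusted P = 0.0173, below the fold limit). PCP034494 was the least expressed, at 2.19 to 5.82 FPKM in ‘CF1’ and 6.77 to 10.3 in ‘RCF1’, with a difference of 1.12 that was lost without ‘CF1’ replicate 3 (0.89), and its cultivars overlapped at 5 DAFB.

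**Figure D2:**
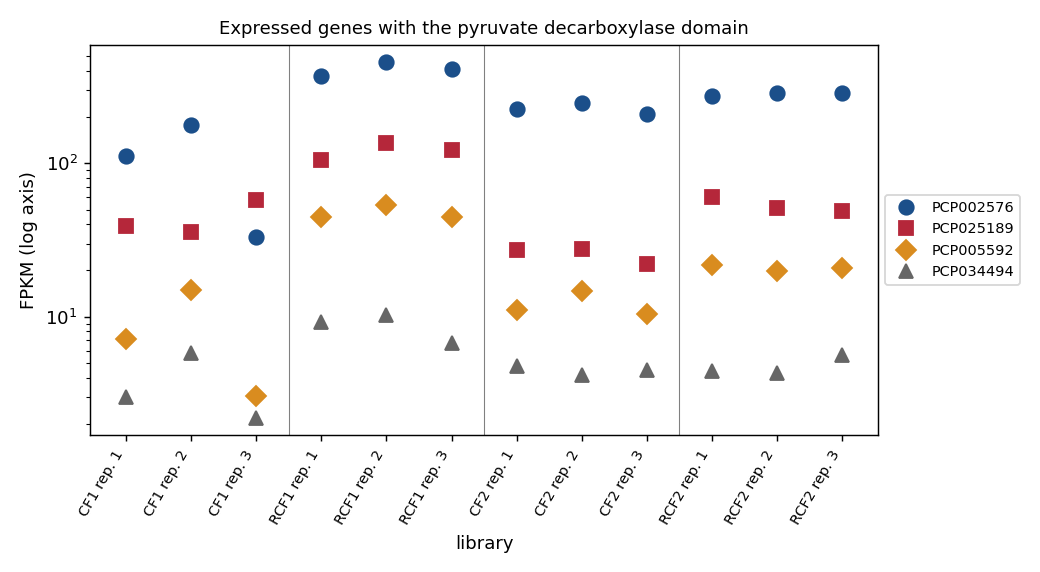
FPKM (log axis) of the 4 expressed genes with the pyruvate decarboxylase domain in each of the 12 libraries, with vertical lines between the groups. PCP002576 lay highest in 11 libraries and below PCP025189 in ‘CF1’ replicate 3, where 3 of the 4 genes had their lowest value.

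PCP025189 and the dominant gene took different courses in ‘CF’. There, PCP025189 was lower at 5 DAFB than at 2 DAFB in every library, whereas PCP002576 was higher (log2 change 1.38, limma adjusted P = 0.124, and 0.69 without ‘CF1’ replicate 3, adjusted P = 0.0451, below the fold limit). In ‘RCF’, PCP005592 fell by 1.15 (adjusted P = 6.94e-05), the same size as PCP025189, and PCP002576 changed by −0.54 (adjusted P = 0.00206). The stage change of PCP002576 differed between the cultivars by −1.92 (SE 0.65, interaction term, adjusted P = 0.235), and by −1.23 without ‘CF1’ replicate 3 (adjusted P = 0.0399). Summed over the 8 genes with the domain, FPKM was 165 ± 69.9 in ‘CF1’ against 592 ± 62.5 in ‘RCF1’, and 271 ± 23.8 in ‘CF2’ against 363 ± 0.872 in ‘RCF2’ (SD, n = 3 each). PCP025189 held 20.4% of it in ‘RCF1’ and 14.8% in ‘RCF2’, 9.42% in ‘CF2’, and 15.2% to 59.8% in the libraries of ‘CF1’.

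The hypoxia induced domain was given for 2 other genes, and neither was called in any of the 4 comparisons with limma (0, 1, 1 and 1 of the 2 had an unadjusted P under 0.05). Of all tested genes, 2.89%, 1.26%, 10.3% and 17.1% were called there. With these shares, a 0 among 2 genes does not set PCP032922 apart from its family. PCP025899 stood at 30.2, 27.5 and 31.2 FPKM in ‘CF1’ and 32.2, 28.1 and 31.2 in ‘RCF1’, then at 16.4, 14.8 and 17.7 in ‘CF2’ and 23.3, 18.1 and 19.6 in ‘RCF2’. It overlapped between the cultivars at 2 DAFB and lay higher in ‘RCF’ at 5 DAFB, with log2 differences of 0.04 and 0.30 (adjusted P = 0.834 and 0.144). PCP034313, at 6.41 to 11.3 FPKM over the 12 libraries, differed by 0.07 and −0.06 (adjusted P = 0.756 and 0.823). PCP032922 made up 20.4% of the summed FPKM of the 3 genes in ‘RCF1’ and 8.94% in ‘RCF2’, against 0.130% in ‘CF1’ and 0 in ‘CF2’.

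Over the 3 domains, 16 of the 21 other genes were tested. At 2 DAFB 4 were called higher in ‘RCF’ and 0 lower (1.02% and 1.87% of all tested genes were), 0 of them after adjustment. Without ‘CF1’ replicate 3, 3 were called higher. At 5 DAFB 0 were called with limma, against 1.26% of all tested genes. An unadjusted P under 0.05 was reached by 5, a count without a share of all tested genes beside it. With age 2 were called lower in ‘RCF’ and 1 in ‘CF’, against 6.71% and 9.91% of all tested genes, and 0 were called higher. Of the 16, 0 were called higher at both stages, the pattern that had chosen the 3 genes, and 0.128% of all tested genes were. With a pattern so rare, a 0 among 16 genes does not set the 3 genes apart from their families.

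**Figure D3:**
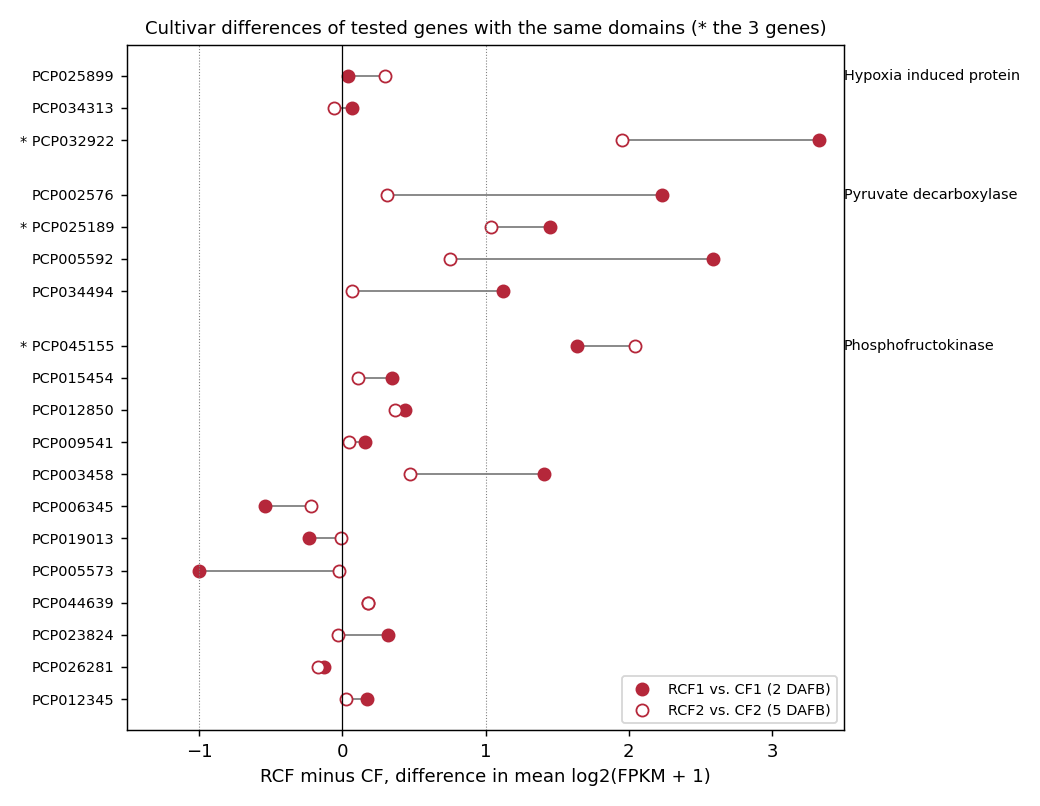
Difference of ‘RCF’ from ‘CF’ in mean log2(FPKM + 1) for each tested gene with the 3 domains, at 2 DAFB (filled) and 5 DAFB (open), with the members marked by an asterisk and dotted lines at the fold limit. The chosen genes were past 1 at both stages. The other pyruvate decarboxylases were past 1 at 2 DAFB alone, and most phosphofructokinases lay near 0.

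The rest of low-oxygen metabolism was described by 169 genes whose domain names belong to sucrose and hexose entry, glycolysis, fermentation, respiration and oxygen binding, or wound-induced proteins. Of these, 128 were tested, and the 3 genes were not among them. At 2 DAFB 9 were called higher in ‘RCF’ and 2 lower (1.02% and 1.87% of all tested genes were), 0 of them after adjustment, and without ‘CF1’ replicate 3 the higher calls were 11. At 5 DAFB 11 were called higher and 3 lower, and 13 of these held after adjustment (1.07% of all tested genes did). The wound-induced proteins, whose function is unknown, gave all 11 of these higher calls, 2 of the lower ones and 12 of the adjusted ones. They also gave 6 of the 9 higher calls at 2 DAFB. The pooled counts therefore do not describe the metabolic lists, and all lists were chosen with earlier results of these data known. The median log2 differences were 0.22 and 0.01.

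Glycolysis and fermentation gave few calls, as did the tested genes at large. Of all tested genes, 1.02% were called higher and 1.87% lower at 2 DAFB, and 0.902% and 0.358% at 5 DAFB. Counts of 0 or 1 in lists of this size lie near these shares. Of 9 tested genes of upper glycolysis (aldolase, triosephosphate isomerase and the like), 0 were called in either cultivar comparison with limma, and 1 and 0 had an unadjusted P under 0.05. Of 34 tested genes of lower glycolysis, 1 was called higher at 2 DAFB, the enolase PCP013361 (log2 difference 1.07, adjusted P = 0.302), and it was lost without ‘CF1’ replicate 3 (0.62). Of 50 tested genes with domain names of alcohol, lactate/malate and aldehyde dehydrogenases, 1 was called. This was the alcohol dehydrogenase PCP036643, at 0.0894 to 0.892 FPKM in ‘CF1’ and 2.55 to 3.08 in ‘RCF1’ (1.26, limma adjusted P = 0.16), and it too was lost without that library. These domain names take in enzymes outside ethanol fermentation, such as malate dehydrogenases. They leave out PCP030456 and PCP025146, which the study's pathway list of DEGs places in glycolysis. Both were higher in ‘RCF’ and are described at the end. The median log2 differences of these lists at 2 DAFB were 0.20, 0.27 and 0.07, against 0.12 over all tested genes. Without ‘CF1’ replicate 3 they were 0.02, 0.16 and −0.02. At 5 DAFB these lists gave 0 calls, and their median log2 differences were −0.05, 0.01 and −0.03. An unadjusted P under 0.05 was reached there by 0, 8 and 7 genes, counts without a share of all tested genes beside them.

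Sucrose synthase, which opens sucrose for glycolysis, had 1 gene called higher at 2 DAFB. PCP011891 stood at 2.22, 3.24 and 1.53 FPKM in ‘CF1’ and 6.64, 13.1 and 6.47 in ‘RCF1’, groups that did not overlap (log2 difference 1.51, limma adjusted P = 0.19, and 1.33 without ‘CF1’ replicate 3). The abundant sucrose synthase PCP022048 overlapped between the cultivars at 2 DAFB and fell with age in both, by 2.33 in ‘RCF’ (adjusted P = 4.81e-06) and 2.13 in ‘CF’ (adjusted P = 0.0161, and by 1.71 without ‘CF1’ replicate 3).

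Of 6 tested genes of respiration and oxygen binding, 2 were called lower in ‘RCF’ at 2 DAFB, where 1.87% of all tested genes were, and 1 at 5 DAFB, where 0.358% were. PCP002967, annotated with the iron-binding site of leghaemoglobin, an oxygen-binding protein, was lower in ‘RCF’ at both stages, by −1.65 (limma adjusted P = 0.253, and −1.25 without ‘CF1’ replicate 3) and −2.40 (adjusted P = 0.00104). Its FPKM was 873, 411 and 1370 in ‘CF1’ and 275, 201 and 287 in ‘RCF1’, and it had dropped to 22.8 to 33.7 in ‘CF2’ and 3.64 to 5.10 in ‘RCF2’. The alternative oxidase PCP011170, which passes electrons to oxygen outside the main respiratory chain, was called lower at 2 DAFB (−1.27, adjusted P = 0.237) and differed by −1.03 without ‘CF1’ replicate 3 and by −0.59 with array weights. The globin PCP006132 differed the other way, at 6.25 to 9.72 FPKM in ‘CF1’ against 12.5 to 18.6 in ‘RCF1’ and 2.87 to 3.73 in ‘CF2’ against 5.11 to 6.93 in ‘RCF2’. Its cultivars did not overlap at either stage, with log2 differences of 0.91 (limma adjusted P = 0.221) and 0.68 (adjusted P = 0.0246), both below the fold limit, and the first was 1.03 and called higher without ‘CF1’ replicate 3, one of the 2 libraries of 6 whose omission made it a call (range 0.75 to 1.09).

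The wound-induced proteins were the list in which most calls were made. The list is not a single family, since it pools the domain name Wun1 with that of a wound-induced protein of unknown function. In Arabidopsis some genes of the latter family are induced by low oxygen. Of 21 genes 17 were tested. At 2 DAFB 6 were called higher in ‘RCF’ and 0 lower (1.02% and 1.87% of all tested genes were), 0 after adjustment. Without ‘CF1’ replicate 3 the calls were 9, with 4 after adjustment, and no share over all tested genes is given for that setting. At 5 DAFB 11 were called higher, against 0.902% of all tested genes, and 2 lower, against 0.358%, with 12 of these calls kept after adjustment and a median log2 difference of 1.62. The lower calls were PCP042084 (−1.03, limma adjusted P = 0.127) and PCP024904, which has a Wun1 domain (−1.21, adjusted P = 0.00335). PCP020689 stood at 23.9, 28.1 and 18.4 FPKM in ‘CF1’, 59.6, 59.6 and 79.2 in ‘RCF1’, 11.6, 6.70 and 12.9 in ‘CF2’, and at 98.9 to 110.0 in ‘RCF2’. Its cultivars did not overlap at either stage (1.46 and 3.25, limma adjusted P = 0.117 and 0.00091, and 1.31 at 2 DAFB without ‘CF1’ replicate 3).

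Summed over the 21 genes, FPKM was 696 to 1042 in ‘CF1’ against 1174 to 1316 in ‘RCF1’, and 306 to 368 in ‘CF2’ against 789 to 901 in ‘RCF2’. The cultivars did not overlap at either stage, while ‘RCF2’ and ‘CF1’ did, as for PCP025189. Much of each sum came from PCP000876, which has a Wun1 domain. Its mean FPKM was 383, 523, 199 and 276 in ‘CF1’, ‘RCF1’, ‘CF2’ and ‘RCF2’, against mean sums of 843, 1228, 332 and 839. It was not called in either cultivar comparison (log2 differences 0.44 and 0.47), so the sums do not describe the called genes alone. Calls in both cultivar comparisons were made for 5 of the 17, PCP014641, PCP014642, PCP020689, PCP042085 and PCP042398, against 0.128% of all tested genes. From 2 to 5 DAFB 9 genes fell in ‘CF’, where 9.91% of all tested genes did, and 2 in ‘RCF’, where 6.71% did. Of the 21 genes 5 lie on scaffold00271. How the authors' counting treated fragments that match several genes is not given in the sources used here, and whether the sequences of these genes are alike was not examined.

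**Figure D4:**
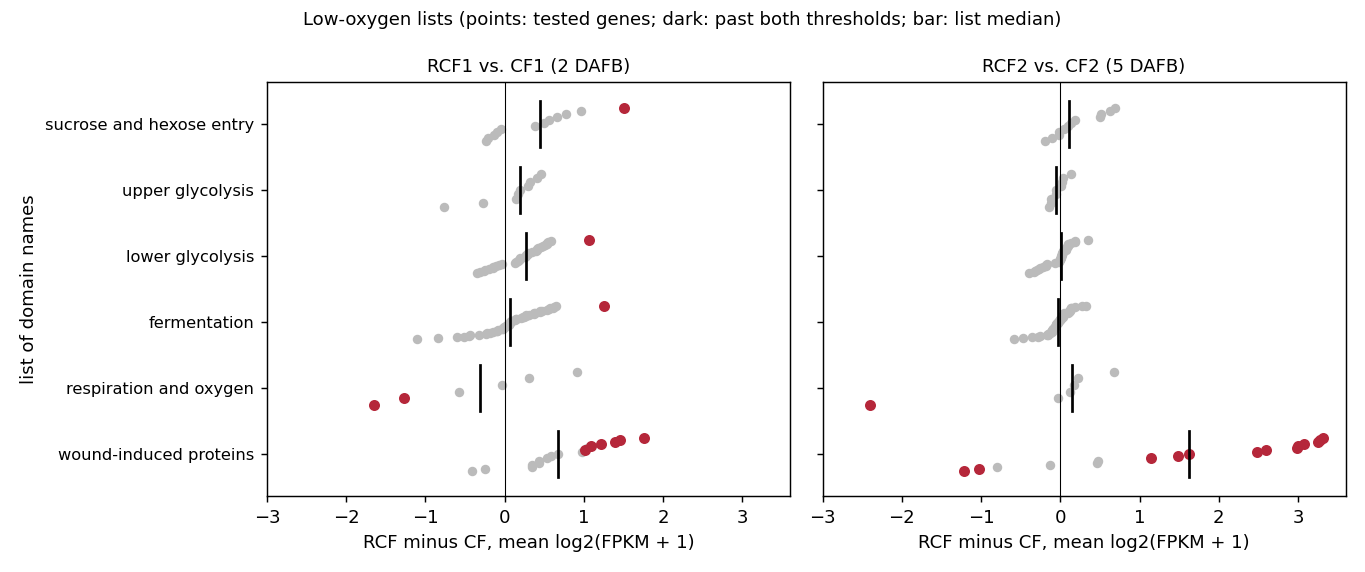
Difference of ‘RCF’ from ‘CF’ in mean log2(FPKM + 1) for the tested genes of each low-oxygen list at 2 DAFB (left) and 5 DAFB (right). Dark points passed both DEG thresholds and bars are list medians. The wound-induced proteins spread to the right at both stages with medians of 0.68 and 1.62. The upper glycolysis, lower glycolysis and fermentation lists had medians of 0.20, 0.27 and 0.07 at 2 DAFB. At 5 DAFB their medians were −0.05, 0.01 and −0.03.

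Plant cysteine oxidases use oxygen to mark transcription factors of the low-oxygen response for breakdown, and 2 genes are named so in the study's list of DEGs, which was drawn from these samples and is not independent of them. PCP024583 stood at 21.4, 36.1 and 14.2 FPKM in ‘CF1’, 45.4, 55.8 and 42.8 in ‘RCF1’, 11.4, 9.46 and 10.7 in ‘CF2’ and 19.5, 15.9 and 17.2 in ‘RCF2’. Its cultivars did not overlap at either stage, with log2 differences of 1.06 (limma adjusted P = 0.277, and 0.75 without ‘CF1’ replicate 3) and 0.69 (adjusted P = 0.0127, below the fold limit), and it fell in ‘RCF’ by 1.40 (adjusted P = 8.18e-05). PCP024915 differed by 0.31 and −0.36 (adjusted P = 0.453 and 0.229) and fell with age in both cultivars, by 2.58 in ‘RCF’ (adjusted P = 3.04e-05) and 1.90 in ‘CF’ (adjusted P = 0.00928, and by 1.73 without ‘CF1’ replicate 3).

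The genes most like each of the 3 over the 12 libraries, by Pearson r of log2(FPKM + 1), were mostly not of fermentation. The 3 genes had an r of 0.934 (PCP045155 with PCP025189), 0.895 (PCP045155 with PCP032922) and 0.903 (PCP025189 with PCP032922) with each other, a likeness that their choice by cultivar helps to fix. For PCP045155 the first was the wound-induced PCP014641 (0.976), followed by PCP018722 with Kelch repeats (0.973), PCP028255 with a malectin domain (0.966), the DNA-binding integrase-type PCP026968 (0.966) and PCP027163, an endoplasmic reticulum oxidoreductin (0.957). For PCP025189 they were PCP027163 (0.974), PCP020347 (0.971), PCP018722 (0.968), PCP026968 (0.955) and PCP030047, a poly(A) polymerase (0.953). For PCP032922 they were the oxoglutarate-dependent oxygenase PCP013133 (0.967), PCP011418 (0.957), PCP018722 (0.950), PCP025146 (0.949) and PCP021356 (0.948). PCP011418 has an RmlC-like jelly roll fold, the domain also given for PCP024583 and PCP024915. PCP025146 is a gene that the study's pathway list of DEGs places in glycolysis. PCP018722 was in each of the 3 lists, whereas the dominant pyruvate decarboxylase PCP002576 had an r of 0.354 with PCP025189 and 0.408 with PCP045155.

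PCP018722 showed the shared pattern in its own values. It stood at 5.16, 6.14 and 7.10 FPKM in ‘CF1’, 20.5, 24.9 and 20.7 in ‘RCF1’, 3.58, 3.17 and 2.73 in ‘CF2’ and 13.7, 9.51 and 11.1 in ‘RCF2’. As for PCP045155, no group overlapped another, in the order ‘RCF1’, ‘RCF2’, ‘CF1’, ‘CF2’.

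The genes beside the 3 on their scaffolds did not overlap them, with gaps of 385 bp, between PCP045155 and a kinase gene on the opposite strand, to 21130 bp. Next to PCP032922, the helix-loop-helix gene PCP032923 was lower in the sport, the opposite of its neighbour, at 3.61 FPKM or more in each ‘CF1’ library and at 1.68, 0 and 1.09 in ‘RCF1’. The groups did not overlap (log2 difference −2.22, limma adjusted P = 0.212, and −1.89 without ‘CF1’ replicate 3), and at 5 DAFB the gene was listed at 0 in 5 of the 6 libraries.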

How the data were processed

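RNA of fruit skins was sequenced in 12 libraries, 3 per group, and groups were read from the sample titles. The deposited values are FPKM that the authors computed per gene; the submitters' processing notes name Trimmomatic 0.38, HISAT2 2.1.0, StringTie 1.3.4d and DESeq2. The study names an apple genome for mapping, whereas the genes carry PCP identifiers on scaffolds, whose build is not given in the sources used here. The deposited table supplied domain names and positions, and 12125 of its genes carry no domain. The relative depth of the libraries, read from the steps between low FPKM values, was 0.63 or more of the deepest. Fragment counts were not used here, so the precision of a single low FPKM is unknown.

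Values were read with Python 3.11.15 and pandas 2.3.3 and fitted as log2(FPKM + 1) with limma 3.58.1 in R 4.3.3 (lmFit, eBayes with a trend, two-sided), each comparison on its own 6 libraries, after a filter at an FPKM of 1 in 3 libraries (25707 genes). P-values were adjusted by Benjamini-Hochberg over all tested genes. The interaction of cultivar and stage was fitted on 12 libraries. The scripts were tested on simulated data. Plots were drawn with matplotlib 3.10.9.

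The members, lists and tests were chosen with earlier results of these data known. Named genes are the 3 members; same-domain genes called in any comparison and the 3 most abundant per domain; low-oxygen genes called in a cultivar comparison and the 2 most abundant per list; the 5 genes most like each member; and the 2 cysteine oxidases. Not all are printed. PCP018722, the neighbours and the candidates PCP030456 and PCP025146 are described after their values were seen. Marker families of cuticle, chlorophyll binding, pollen and flower, and lignified cells were summed. Alternatives were a pseudocount of 0.1, no filter, a filter at FPKM 10, TPM, quantile normalization, 1 fit of 12 libraries, array weights, a block for the replicate number, omission of single libraries, and the adjusted P.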

Additional observations from a re-analysis of the deposited data

How the results depend on the processing

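Of 290 alternative values, 17 moved and 1 weakened, and the other 272 kept their call where there was a test, their count within 1.5 times, or, for the untested cultivar differences of the 3 genes, a value within the spread of the replicates. Among the last, PCP025189 at 5 DAFB crossed the limit of 1 without ‘CF2’ replicate 3 (0.94) and without ‘RCF2’ replicate 1 (0.95). The difference of PCP045155 in ‘RCF1’ vs. ‘CF1’ was 1.88 with array weights, and its change in ‘CF2’ vs. ‘CF1’ was −0.96. PCP032922 differed by 6.14 and 4.87 with a pseudocount of 0.1 and by 3.96 and 2.57 in TPM, since the constant added to a 0 then weighs differently; it has no value under the filter at FPKM 10. Called same-domain genes in ‘RCF1’ vs. ‘CF1’ were 4, and 0 after adjustment; in ‘RCF2’ vs. ‘RCF1’ 2, and 1 under the filter at FPKM 10, which tests fewer genes; in ‘CF2’ vs. ‘CF1’ 1, 0 under that filter, and 2 each with TPM, quantile normalization, 1 fit, array weights and the replicate block. Called low-oxygen genes in ‘RCF1’ vs. ‘CF1’ were 11, 7 under the filter at FPKM 10 and 0 after adjustment; in ‘RCF2’ vs. ‘RCF1’ 12, and 21 with the pseudocount of 0.1. Where no reason is given, the cause was not tested.

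With each library left out, same-domain calls numbered 3 to 5 between the cultivars at 2 DAFB and 1 to 3 between the stages of ‘CF’, 3 without ‘CF1’ replicate 2. Low-oxygen calls ranged from 8 to 13, 13 to 14, 12 to 16 and 21 to 35 in the 4 comparisons. Replicate numbers were not treated as pairs in the main fits. Deviations of same-numbered libraries had correlations of −0.179 to 0.335, and not every library was most like its own number. With 3 libraries per group these values cannot exclude a pairing. The block for the replicate number changed no stage call of the 3 genes.

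Relative depth, from the steps of low FPKM, was 0.63 of the deepest library in ‘CF1’ replicate 1, the shallowest, and 0.96 or more in ‘CF2’, and the number of fragments behind a value such as 0.152 FPKM is unknown, so a 0 for PCP032922 does not show absence. The marker families are domain names, not single defining genes.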

Other observations

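PCP030456 and PCP025146, with an NAD(P)-binding domain, are placed in glycolysis by the study's pathway list of DEGs, which was drawn from these samples. PCP030456 stood at 28.7, 23.4 and 45.6 FPKM in ‘CF1’, 56.5, 75.3 and 75.9 in ‘RCF1’, 9.97, 10.1 and 10.9 in ‘CF2’, and 23.1, 18.8 and 21.6 in ‘RCF2’. The cultivars did not overlap at either stage, and the gene fell with age in both, by 1.66 in ‘RCF’ (limma adjusted P = 6.22e-05) and 1.51 in ‘CF’ (adjusted P = 0.0152, and by 1.25 without ‘CF1’ replicate 3). Its r with PCP025189 over the 12 libraries was 0.932. PCP025146 stood at 2.39, 1.33 and 1.11 FPKM in ‘CF1’ and 7.65, 10.1 and 8.57 in ‘RCF1’, and its cultivar difference was 1.93 at 2 DAFB (adjusted P = 0.0848, and 1.79 without ‘CF1’ replicate 3) and 0.77 at 5 DAFB (adjusted P = 0.019, below the fold limit).

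PCP008283, the Myb-domain gene that shared the cultivar pattern of PCP032922, was higher at 5 DAFB where PCP032922 was lower. It stood at 2.19, 2.86 and 2.99 FPKM in ‘RCF1’ and at 6.31, 3.63 and 5.29 in ‘RCF2’, without overlap, while all ‘CF’ libraries were at or below 0.197. Its change in ‘RCF2’ vs. ‘RCF1’ was 0.70 (limma adjusted P = 0.0136, below the fold limit).

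The change of the cultivar difference between the stages was tested as an interaction term with limma for the 144 same-domain and low-oxygen genes, and 0 had an adjusted P under 0.05 with all libraries, as did 0 of all tested genes (32 and 4061 had an unadjusted P under 0.05). Without ‘CF1’ replicate 3, 6 of the 144 passed, among them the dominant pyruvate decarboxylase PCP002576 (−1.23, adjusted P = 0.0399) and the wound-induced PCP042085 (2.01, adjusted P = 0.00718) and PCP016595 (2.29, adjusted P = 0.0193). The negative sign of PCP002576 means a cultivar difference that narrowed from 2 to 5 DAFB, and the positive ones a difference that widened. No count over all tested genes is given without this library, so whether 6 of 144 exceeds their share is not known.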
